A study of Mus musculus with 40 samples.

Results

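The change that neutrophils underwent between blood and colon tumor was compared with the change that monocytes underwent over the same step, gene by gene, in tumor-bearing mice. Members were the 16 of 40 libraries that hold these cells in these mice, with 4 libraries in each of 4 groups, and the quantity tested was the log2 fold change of tumor over blood in neutrophils minus that in monocytes, an interaction term. A positive value of this difference means that the response was larger, or less negative, in neutrophils. All animals were Apc fl/fl mice carrying Cdx2CreERT2, a tamoxifen-activated Cre recombinase under the Cdx2 promoter, which acts in colon epithelium, so that the sorted myeloid cells themselves were not the intended target of the deletion. Tamoxifen was given once by intraperitoneal injection at 25 mg/kg, at an age of 8 to 10 weeks per the labels, to the animals of every group. The paper gives the vehicle as sunflower oil. The strain labels read C57Bl6/Sv129 for tumor monocyte replicate 1 and carry another number after Sv in every other library of these groups. Cells were sorted as CD45+ EpCAM- CD11b+ MHCII-, neutrophils being Ly6G+ with low Ly6C and monocytes Ly6G- with high Ly6C. Tumors were digested with enzymes before the sort and blood was freed of red cells by lysis, so tissue and digestion cannot be told apart in what follows. One blood neutrophil library, replicate 3, was a pool of 2 animals.

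Neutrophils and monocytes are short-lived phagocytes that arise from a shared progenitor in bone marrow and circulate before they enter inflamed tissue and tumors. Neutrophils leave the marrow with granule proteins already made and with few transcripts for many receptors and regulators, whereas monocytes keep a broad transcriptome and can turn into macrophages. In tissue both cell types meet bacterial products, cytokines such as interleukin-1 and low oxygen, which act through NF-kappaB, immediate early transcription factors and hypoxia-inducible factors.

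Total expected counts ran from 11737907 to 20229439 per library and mitochondrial transcripts took 9.36% to 37.5% of them. The sorted cells carried their own markers and less of each other's. The summed level of 10 neutrophil markers in tumor monocytes was 52.1 to 91.3 RPKM (reads per kilobase of gene, scaled to library size), against 1977 to 13018 RPKM in tumor neutrophils. The summed level of 10 monocyte markers was 23.1 to 54.1 RPKM in tumor neutrophils, against 280 to 353 RPKM in tumor monocytes. Their median level in tumor neutrophils was 0.483% to 2.69% of that in blood monocytes. Tumor neutrophil replicate 1 stood apart. Over 16 epithelial markers, its median level was 83.9% of the mean in sorted tumor epithelial cells, against 5.28% to 14.1% in the other tumor neutrophil libraries, 0.656% to 17.3% in tumor monocytes and at most 0.478% in blood, and its neutrophil markers reached 6.90% of the blood level, against 45.7% to 63.6% in the other 3. Tumor epithelial cells were therefore used as a level check: a gene with a positive change failed it when its mean RPKM in epithelial cells was at or above that of the tumor cell type that gained it. Counts of called differences are also given without tumor neutrophil replicate 1, and a called difference of a gene named by rule or from a list is named where it was lost without it.

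**Figure D1:**
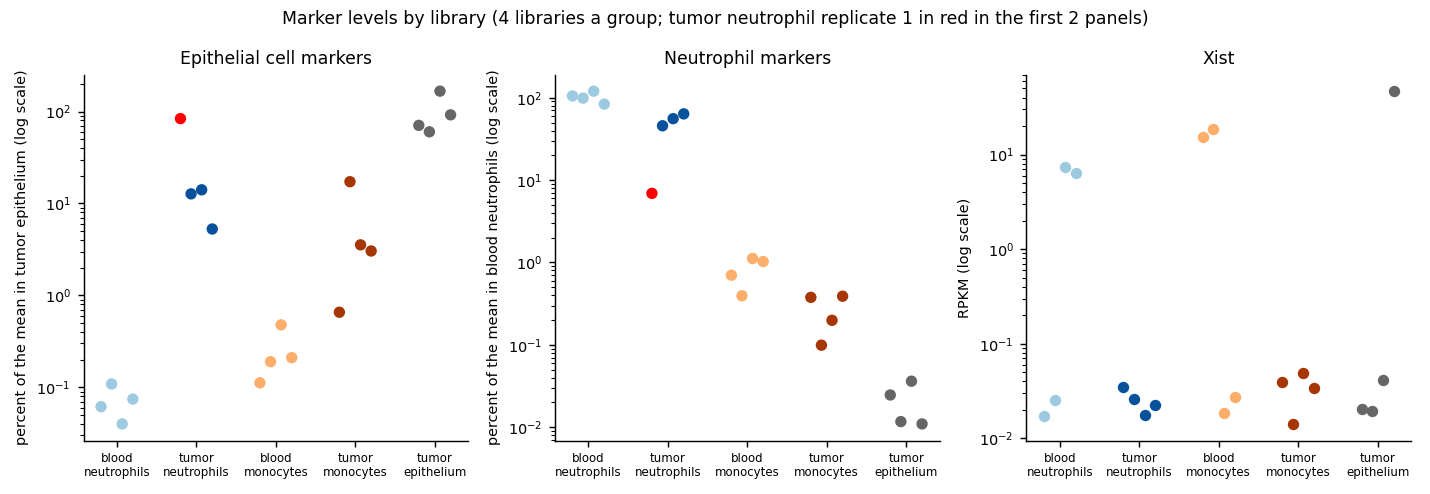
Epithelial and neutrophil markers as the median percentage of their mean in tumor epithelium or blood neutrophils, and Xist in RPKM (y axes, log scale), in 4 libraries of each of 5 groups (x axes), 1 point a library. Tumor neutrophil replicate 1 had epithelial markers at 83.9% and neutrophil markers at 6.90%, apart from the other 3 tumor neutrophil libraries, and Xist was high in 4 blood libraries and 1 of tumor epithelium.

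A set of 4 blood libraries differed from the remaining 12 libraries in sex-linked genes. Xist, the RNA of the inactive X chromosome, was at 15.3 and 18.7 RPKM in blood monocyte replicates 1 and 2 and at 7.35 and 6.31 RPKM in blood neutrophil replicates 3 and 4, and at 0.0142 to 0.0492 RPKM in the other 12, while the Y-linked Eif2s3y was at 0.0791 to 0.404 RPKM in those 4 and 2.47 to 6.39 RPKM in the others. The library titles name 7 animals for more than 1 library of these groups or of tumor epithelial cells, and the libraries of 4 of these animals differed in Xist, 1 of them by way of the pooled library, whose title names 2 animals, so the animal in the title was not treated as a pairing. The same 4 libraries held 568 to 1104 RPKM of summed erythroid and platelet transcripts, against 6.92 to 107 RPKM in the other blood libraries. Results are also given without these 4 libraries, where each blood group keeps 2 libraries. Their part in the differences was not tested beyond this.

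To show regulatory sequence near genes that rose in both cell types, promoters are printed for 2 genes of the NF-kappaB response (Tnfaip3 and Cxcl3) and 2 of the low-oxygen response (Slc2a1 and Egln3). The sequences are from RefSeq on GRCm38.p6, read 5′ to 3′ on the strand of the gene, from 250 bases before to 50 bases after the start site. Capitals mark the matches to the NF-kappaB decamer consensus in the first pair and to ACGTG, the core of the hypoxia response element, in the second pair. Tnfaip3 (chr10:19015361-19015660, minus strand) held 3 decamer matches, of which 2 lie on opposite strands of the same 10 letters, and Cxcl3 (chr5:90785851-90786150, plus strand) held 2 that overlap. Slc2a1 (chr4:119108495-119108794, plus strand) and Egln3 (chr12:54203825-54204124, minus strand) each held 1 ACGTG. Each pair is marked for 1 motif only. Counted on both strands, Tnfaip3 also held 3 ACGTG matches and Cxcl3 held 2, which are not marked, so ACGTG was not confined to the second pair.
Tnfaip3: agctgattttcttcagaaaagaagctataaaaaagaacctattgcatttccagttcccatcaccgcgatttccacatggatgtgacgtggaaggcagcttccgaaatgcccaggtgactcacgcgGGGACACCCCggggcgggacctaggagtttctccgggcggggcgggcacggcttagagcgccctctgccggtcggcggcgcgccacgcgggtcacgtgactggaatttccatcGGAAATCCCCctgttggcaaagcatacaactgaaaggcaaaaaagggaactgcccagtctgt
Cxcl3: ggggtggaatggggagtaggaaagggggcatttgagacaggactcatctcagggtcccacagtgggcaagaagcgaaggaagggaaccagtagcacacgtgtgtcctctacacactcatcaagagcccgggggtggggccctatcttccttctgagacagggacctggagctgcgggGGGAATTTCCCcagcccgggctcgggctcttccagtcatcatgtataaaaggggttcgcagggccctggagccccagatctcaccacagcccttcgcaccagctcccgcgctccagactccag
Slc2a1: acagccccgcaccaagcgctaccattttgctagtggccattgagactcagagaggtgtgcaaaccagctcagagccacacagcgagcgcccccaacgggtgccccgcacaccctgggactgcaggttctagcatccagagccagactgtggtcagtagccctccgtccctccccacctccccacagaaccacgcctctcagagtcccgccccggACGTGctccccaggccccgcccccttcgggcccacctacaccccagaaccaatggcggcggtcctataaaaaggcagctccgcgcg
Egln3: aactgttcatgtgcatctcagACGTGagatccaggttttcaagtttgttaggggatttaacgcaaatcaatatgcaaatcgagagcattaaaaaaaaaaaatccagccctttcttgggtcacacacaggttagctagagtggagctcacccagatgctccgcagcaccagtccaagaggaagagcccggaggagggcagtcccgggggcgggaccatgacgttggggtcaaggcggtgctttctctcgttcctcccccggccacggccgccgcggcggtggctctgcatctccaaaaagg

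The decamer, searched on both strands, was in the windows of 2211 of 27025 genes (8.18%). It was in 8 of the 11 NF-kappaB subunit and inhibitor genes whose window could be matched, out of 14 genes in the list, and in 4 of the 10 matched of 13 CXC chemokine genes. ACGTG, also on both strands, was in 5315 of 27025 windows (19.7%) and in 14 of the 24 matched of 27 glycolysis and hypoxia genes. In the remaining lists the share of matched windows ran from 0% to 37.5% for the decamer, highest in immediate early genes. For ACGTG it ran from 0% to 40%, highest in lysosome and lipid genes. The decamer share of CXC chemokine genes, 40%, was thus close to that of immediate early genes. These are matches of letters, not sites of binding.

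Of 17466 genes tested, 694 (3.97%) responded differently in the 2 cell types, by edgeR's quasi-likelihood test with a Benjamini-Hochberg adjusted p under 0.05 and an absolute log2 difference above 1.5. The response was larger in neutrophils for 479 genes (2.74%) and larger in monocytes for 215 (1.23%). Without tumor neutrophil replicate 1 the counts were 342 and 211, and 310 of the 479 and 164 of the 215 were called again. The level check divided the directions unequally: 415 of the 479 genes with a larger neutrophil response failed it, against 34 of the 215 with a larger monocyte response. Of all 17466 genes, 7448 failed it. Among the 415 that failed, 250 had a mean in tumor neutrophils at or below the epithelial share. This share is the epithelial marker level of those libraries times the level in sorted epithelial cells. None of the 64 that passed did, which the check itself fixes for genes that rose in neutrophils, since the share is below the epithelial level. Without tumor neutrophil replicate 1 the 250 became 124. The counts also rested on few libraries per group. They fell to 35 and 20 without the 4 blood libraries with Xist. Without those 4 libraries all 479 and all 215 genes kept the sign of their difference, and 475 and 201 kept an absolute log2 difference above 1.5. The genes were chosen on a fit that includes the remaining libraries, so this is no separate test. With the epithelial marker level as a covariate the counts were 17 and 15. That level was at most 0.478% of the epithelial mean in every blood library and at least 0.656% in every tumor myeloid library. The covariate thus nearly follows tumor against blood, so this fit cannot separate epithelial RNA from the response itself.

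**Figure D2:**
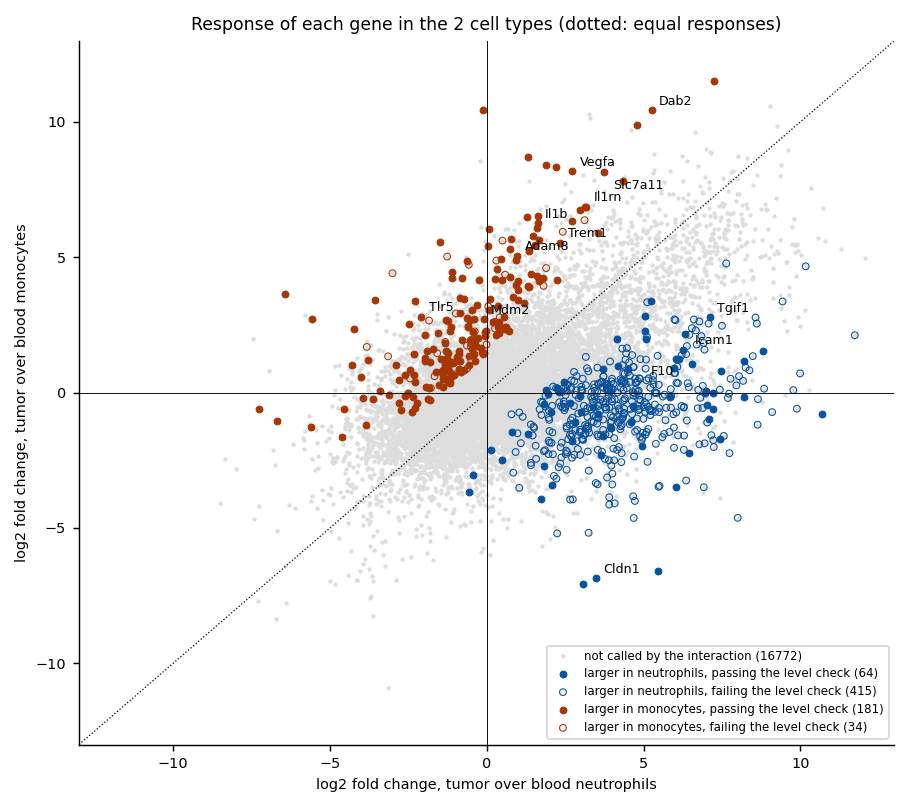
Log2 fold change of tumor over blood in neutrophils (x axis) and in monocytes (y axis) for 17466 genes, with genes called by the interaction in blue (479, larger in neutrophils) and brown (215, larger in monocytes), filled where they passed the level check. Most blue points lie right of zero with little change in monocytes, and most of them are open, having failed the level check.

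Genes called in both cell types mostly moved the same way. Called changes numbered 2867 up (16.4%) and 1162 down (6.65%) in neutrophils, and 1279 up (7.32%) and 480 down (2.75%) in monocytes. Genes called in both numbered 1076, which is 26.7% of the neutrophil calls and 61.2% of the monocyte calls. Of these, 833 rose in both (4.77% of all genes), 228 fell in both (1.31%) and 15 were opposed. Only 48 of the 833 also differed by the interaction, 23 with a larger neutrophil response and 25 with a larger monocyte response. The level check was failed by 74.3% of the genes that rose in neutrophils and 42.8% of those that rose in monocytes. Of the 833, 289 passed it and 279 of these were called again without tumor neutrophil replicate 1.

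Of the 5 named genes with the largest shared rise, Il1a differed between the cell types. Il1a, which encodes interleukin-1 alpha, was at 0.199, 0.0383, 0.948 and 0.136 RPKM in the 4 blood neutrophil libraries and at 41.4, 63.2, 51.0 and 53.1 RPKM in tumor neutrophils. It was at 0.0132, 0.0371, 0.0255 and 0.112 RPKM in blood monocytes and at 114, 103, 117 and 139 RPKM in tumor monocytes. Neither pair of groups overlapped, which held for 24.1% of all genes in neutrophils and 25.3% in monocytes. Its log2 change was 7.25 (SE 0.86) in neutrophils and 11.50 (SE 1.03) in monocytes, and the difference of −4.25 had an adjusted p of 0.0296 in edgeR's quasi-likelihood test, which became 0.0526 without tumor neutrophil replicate 1 and 0.453 without the Xist libraries. The rise itself was called in both cell types in each of these fits.

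A further 4 genes rose in both by amounts the interaction did not separate. Serpinb2, the plasminogen activator inhibitor PAI-2, rose from 0.0099 to 0.115 RPKM in blood neutrophils to 2.02 to 8.47 RPKM in tumor neutrophils, and from 0.00818 to 0.101 to 4.96 to 11.4 RPKM in monocytes. The log2 changes were 7.08 (SE 0.83) and 7.77 (SE 0.86). Nr4a3, an immediate early nuclear receptor, went from at most 0.180 RPKM to 17 to 21.6 RPKM in neutrophils and from at most 0.556 RPKM to 18.5 to 26.1 RPKM in monocytes, and the tumor levels overlapped. Tgm2, a transglutaminase that crosslinks proteins, was at 36.4, 136, 84.9 and 87.9 RPKM in tumor neutrophils and 86.3, 88.4, 179 and 183 RPKM in tumor monocytes, against 0.176 to 1.89 RPKM in all 8 blood libraries. Ralgds, an activator of Ral GTPases, rose by 6.67 (SE 0.66) and 6.52 (SE 0.64) on the log2 scale. All 5 genes were lower in tumor epithelial cells than in either tumor cell type, at 0.0196 to 1.57 RPKM on average.

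Most NF-kappaB genes rose in both cell types. Of 14 subunit and inhibitor genes, 13 rose in neutrophils (median log2 change 3.10, against 0.12 over all genes) and 10 in monocytes (median 2.17, against −0.04 over all genes), all 10 of them in both, and none failed the level check. The shares of all genes that rose were 16.4% in neutrophils, 7.32% in monocytes and 4.77% in both. None differed by the interaction, and without tumor neutrophil replicate 1 a single gene, Nfkb2, did (difference 2.49, adjusted p 0.0392 in edgeR's quasi-likelihood test). Tnfaip3, the ubiquitin-editing enzyme A20 that ends NF-kappaB signaling and whose promoter is printed above, was at 0.372, 0.483, 1.43 and 1.80 RPKM in blood neutrophils and 39.3, 118, 45.9 and 46.2 RPKM in tumor neutrophils. In monocytes it was at 3.65, 1.96, 0.635 and 1.65 RPKM in blood and 24.4, 35.1, 28.5 and 26.8 RPKM in the tumor. Both rises separated the groups, at log2 6.0 (SE 0.75) and 4.08 (SE 0.68), and the difference of 1.92 had an adjusted p of 0.21. Nfkb2, the p100 precursor, rose by 3.82 (SE 0.52) in neutrophils and 1.61 (SE 0.48) in monocytes. Nfkbie, an inhibitor of the IkappaB family, rose by 4.45 (SE 0.53) and 2.87 (SE 0.49).

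CXC chemokine genes, whose products draw neutrophils and lymphocytes, rose in 8 of 13 cases in neutrophils (median log2 change 4.84) and in 10 of 13 in monocytes (median 6.22), all 8 of them in both, and none differed by the interaction. Over all genes 16.4% rose in neutrophils, 7.32% in monocytes and 4.77% in both. Without tumor neutrophil replicate 1, 7 rose in neutrophils. Cxcl3, a ligand of Cxcr2 with the second promoter above, was at 37.4, 150, 70.9 and 66.5 RPKM in tumor neutrophils against 0.450 to 4.22 RPKM in blood neutrophils. It was at 9.68, 26.4, 22.9 and 25.1 RPKM in tumor monocytes against 0.0188 to 0.378 RPKM in blood monocytes. Tumor neutrophils thus ended higher, although the log2 change was 5.57 (SE 0.92) in neutrophils and 7.37 (SE 1.01) in monocytes. Cxcl10, an interferon-induced ligand of Cxcr3, rested in level on 1 library in tumor monocytes, at 382 RPKM in replicate 1 and 21.1 to 24.4 RPKM in the other 3, and its epithelial mean of 11.1 RPKM was above the 6.85 RPKM of tumor neutrophils, so it failed the level check there. In all, 6 of the 13 genes failed it, against 7448 of all 17466 genes.

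Among the CC chemokine genes 5 of 16 rose in neutrophils and 5 in monocytes, against 16.4% and 7.32% of all genes. The 1 that rose in both, against 4.77% of all genes, was Ccrl2, an atypical chemoattractant receptor. It went from 0.150, 0.0891, 2.79 and 2.69 RPKM to 84.4, 144, 95.8 and 89.9 RPKM in neutrophils and from 7.04, 3.11, 0.976 and 2.50 RPKM to 45.9, 73.2, 66.6 and 80.7 RPKM in monocytes. Its difference of 1.61 was not called with all 16 libraries and was 4.36 without the Xist libraries (adjusted p 0.0416 in edgeR's quasi-likelihood test). Ccl3, a chemokine for monocytes and T cells, was at 280, 1501, 299 and 253 RPKM in tumor neutrophils and 0.566 to 19.7 RPKM in blood neutrophils, and did not separate in monocytes, at 36.0 to 138 RPKM in the tumor and 7.47 to 72.8 RPKM in blood. Its difference of 5.18 (SE 1.51) had an adjusted p of 0.0597 in edgeR's quasi-likelihood test. The 2 blood monocyte libraries with Xist had the 2 highest blood values of Ccl3, at 72.8 and 59.3 RPKM, and the 2 blood neutrophil libraries with Xist had 19.7 and 10.6 RPKM, against 0.566 and 0.913 RPKM in the other 2.

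Immediate early and heat shock genes, which tissue digestion can also raise, rose in both cell types as well. Of 21 immediate early genes 12 rose in neutrophils and 11 in monocytes, 9 in both, against 16.4%, 7.32% and 4.77% of all genes. The level check was failed by 11 of the 21, and by 7448 of all 17466 genes. Of 13 heat shock genes 9 and 7 rose, 6 in both, and 11 failed the level check. Tumor epithelial cells were digested in the same way, and the part of digestion in these levels was not tested. Hspa5, the chaperone BiP of the endoplasmic reticulum, rose to 100, 112, 103 and 125 RPKM in tumor neutrophils from 20.6 to 31.4 RPKM in blood, and to 209, 285, 259 and 285 RPKM in tumor monocytes from 20.1 to 33.5 RPKM. Its epithelial mean was 136 RPKM, between those of the tumor cell types. Bhlhe40, a transcription factor induced in activated myeloid cells, rose from 0.359 to 1.71 RPKM to 44.5 to 60.9 RPKM in neutrophils and from 1.48 to 9.79 RPKM to 61.4 to 101 RPKM in monocytes.

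Single genes of survival and lipid handling also rose in both. Bcl2l11, which encodes the death-promoting protein Bim, was at 1.94, 2.53, 3.48 and 3.81 RPKM in blood neutrophils and at 37.6, 51.4, 71.5 and 77.1 RPKM in tumor neutrophils, a log2 change of 4.24 (SE 0.38). In monocytes it went from 4.24 to 7.20 RPKM to 36.0 to 57.4 RPKM, a change of 3.22 (SE 0.37). Abca1, the transporter that exports cholesterol, rose by 4.63 (SE 0.44) and 5.31 (SE 0.45). Of 18 survival genes 7 rose in neutrophils and 5 in monocytes, 3 in both, and of 20 lysosome and lipid genes 4 rose in each, 2 of them in both, against 16.4% of all genes in neutrophils and 7.32% in monocytes. The lipid gene share in neutrophils is thus near that of all genes. The level check was failed by 6 of the 18 survival genes and 4 of the 20 lysosome and lipid genes.

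Fewer genes fell in both, and part of this set followed the blood libraries with Xist. Xist itself was among the 228, as was Hbb-bs, a beta globin gene with a near-identical copy, at 233 and 256 RPKM in the blood neutrophil libraries with Xist and 3.11 and 29.0 RPKM in the others. Without those libraries neither fell in both. Ppbp, a platelet chemokine, was at 22.0 to 36.9 RPKM in 3 blood neutrophil libraries and 1.98 RPKM in replicate 1. Its fall in neutrophils had an adjusted p of 0.0105 and that in monocytes 0.0638 without the Xist libraries. Mir5104, a microRNA gene of 1.24 to 7.92 RPKM in blood, rested on at most 45 counts in any library.

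Granule protein genes made up a second kind of shared fall. Of 13 tested, 8 fell in neutrophils (median log2 change −2.20) and 4 in monocytes (median −1.84), 3 of them in both, and none rose. Over all genes 6.65% fell in neutrophils, 2.75% in monocytes and 1.31% in both. Camp, the cathelicidin of secondary granules, was at 20.8, 5.79, 8.60 and 30.1 RPKM in blood neutrophils and 0.469, 0.213, 1.45 and 0.198 RPKM in tumor neutrophils. In blood monocytes it was at 9.76, 0.376, 3.97 and 6.12 RPKM and in tumor monocytes at 0 to 0.0842 RPKM. Ltf, lactoferrin, fell by 4.28 (SE 0.45) and 3.39 (SE 0.44) on the log2 scale. Ngp, neutrophilic granule protein, was at 456, 270, 135 and 271 RPKM in blood neutrophils and 6.62, 8.74, 49.1 and 66.9 RPKM in tumor neutrophils, and fell by 3.25 (SE 0.77) and 6.41 (SE 0.90). Falls of these 3 genes in both cell types were also called without the Xist libraries. In bulk samples fewer cells of a type and less RNA per cell cannot be told apart. Neutrophil markers stood at 0.394% to 1.12% of their blood neutrophil level in blood monocytes and 0.099% to 0.389% in tumor monocytes, and their part in the granule gene values of monocytes was not tested.

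Genes with a larger monocyte response included 93 called up in monocytes alone, 25 that rose in both, 46 called down in neutrophils alone, 46 called in neither cell type alone, 4 opposed and 1 that fell in both. Before tumor entry 183 of the 215 (85.1%) were higher in neutrophils, against 31.1% of all genes, with a median log2 ratio of neutrophils over monocytes of 1.53. After entry the median was −0.64. These ratios come from the same libraries as the test and describe the set.

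Il1b and Il1rn were cytokine genes of this set. Il1b, which encodes interleukin-1 beta, was already at 98.0, 170, 364 and 312 RPKM in blood neutrophils and reached 291, 1129, 776 and 627 RPKM in tumor neutrophils. In monocytes it went from 5.35, 10.6, 2.51 and 5.06 RPKM to 339, 419, 367 and 443 RPKM. The neutrophil groups overlapped through tumor replicate 1, the monocyte groups were far apart, and the log2 changes of 1.62 (SE 0.55) and 6.25 (SE 0.68) differed by −4.62 (SE 0.80, adjusted p 0.00483 in edgeR's quasi-likelihood test; 0.00364 without tumor neutrophil replicate 1 and 0.0806 without the Xist libraries). Il1rn, the antagonist of the interleukin-1 receptor, went from 11.9, 20.0, 24.5 and 19.9 RPKM to 93.5, 221, 189 and 187 RPKM in neutrophils and from 1.37, 2.64, 0.920 and 1.03 RPKM to 147, 145, 114 and 207 RPKM in monocytes. No groups overlapped within a cell type, the tumor levels of the 2 cell types did, and the difference was −3.69 (SE 0.61, adjusted p 0.00389 in the same test), also called without tumor neutrophil replicate 1 and without the Xist libraries. Over the 16 tested genes of interleukin-1 and TNF cytokines, 9 rose in neutrophils and 11 in monocytes, 9 in both, and 3 had a larger monocyte response (2 without tumor neutrophil replicate 1), none a larger neutrophil response. The shares over all genes were 16.4%, 7.32%, 4.77% and 1.23%, in this order. Of the 16 genes, 6 failed the level check.

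Vegfa and Slc2a1 did so among 26 tested genes of glycolysis and hypoxia, of which 12 rose in neutrophils (median log2 change 0.94) and 13 in monocytes (median 1.66), 11 of them in both. The shares over all genes were 16.4% in neutrophils, 7.32% in monocytes and 4.77% in both. Vegfa, the vascular endothelial growth factor, was at 0.503, 0.949, 1.72 and 1.30 RPKM in blood neutrophils and 8.52, 9.72, 7.04 and 5.60 RPKM in tumor neutrophils. It was at 0.206, 0.375, 0.0248 and 0.0194 RPKM in blood monocytes and 24.6, 29.0, 56.4 and 47.8 RPKM in tumor monocytes. Every tumor monocyte library was above every tumor neutrophil library, and the changes of 2.73 (SE 0.69) and 8.18 (SE 0.89) differed by −5.45 (SE 0.98, adjusted p 0.00578 in edgeR's quasi-likelihood test), as they did without tumor neutrophil replicate 1 and without the Xist libraries. The epithelial mean of Vegfa was 5.71 RPKM, 74.0% of the tumor neutrophil mean and 14.5% of the tumor monocyte mean. Slc2a1, the glucose transporter GLUT1 with the third promoter above, reached 31.8, 80.3, 65.8 and 60.9 RPKM in tumor neutrophils and 45.0, 37.8, 69.8 and 69.6 RPKM in tumor monocytes, from 13.4 to 20.0 and 2.32 to 4.74 RPKM in blood. Its tumor levels overlapped, and its difference of −2.45 (SE 0.57) had an adjusted p of 0.023, which was 0.0172 without tumor neutrophil replicate 1 and 0.235 without the Xist libraries. Egln3, the oxygen-sensing hydroxylase PHD3 with the fourth promoter, rose by 2.51 (SE 0.55) and 4.19 (SE 0.60), and Bnip3, a mitophagy gene, by 1.52 (SE 0.50) and 3.17 (SE 0.53), without a called difference.

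**Figure D3:**
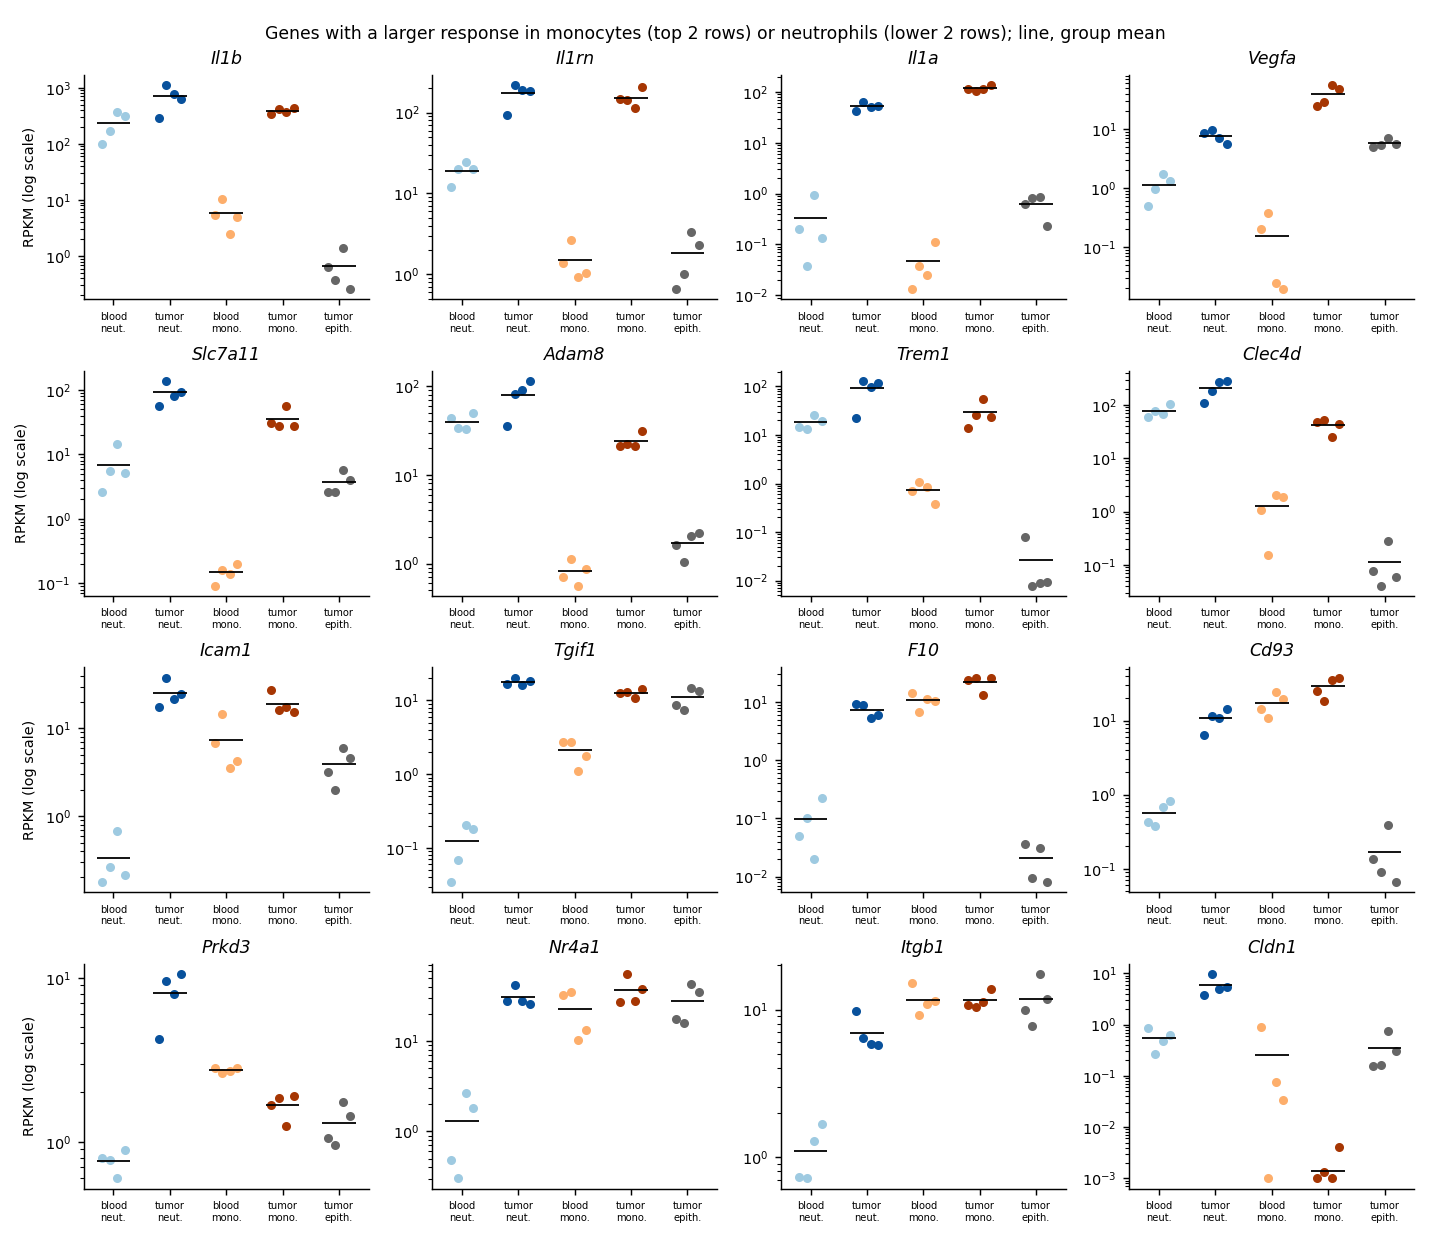
RPKM of 16 genes (y axes, log scale) in each library of the 4 myeloid groups and of tumor epithelial cells (x axes), with the group mean as a line. In the upper 8 panels (larger monocyte response) blood monocytes are far below blood neutrophils, except for Il1a, and in the lower 8 (larger neutrophil response) blood neutrophils are the lowest myeloid group for all but Cldn1, whose values under 0.001 RPKM are drawn at 0.001.

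Slc7a11, Adam8 and Cd9 were higher in blood neutrophils than in blood monocytes and rose in monocytes. Slc7a11, the cystine transporter that feeds glutathione synthesis, was at 2.64, 5.62, 14.5 and 5.14 RPKM in blood neutrophils, 56.5, 138, 80.6 and 93.6 RPKM in tumor neutrophils, 0.0921, 0.162, 0.138 and 0.201 RPKM in blood monocytes and 30.3, 27.5, 57.3 and 27.7 RPKM in tumor monocytes. Its difference was −4.41 (SE 0.78, adjusted p 0.00516 in edgeR's quasi-likelihood test, 0.00705 without tumor neutrophil replicate 1), and the call was lost without the Xist libraries (−3.33, adjusted p 0.169). Adam8, a membrane metalloprotease of leukocytes, was at 32.4 to 49.3 RPKM in blood neutrophils and 35.5, 81.6, 90.3 and 114 RPKM in tumor neutrophils, which overlap, but went from 0.566 to 1.14 RPKM to 21 to 31.5 RPKM in monocytes. Its difference was −4.09 (SE 0.55, adjusted p 8.79e-04 in the same test), with 8.29e-05 without tumor neutrophil replicate 1 and 0.0387 without the Xist libraries. Cd9, a tetraspanin, rose from 5.30 to 8.46 RPKM to 15.7 to 33.5 RPKM in neutrophils and from 0.0753 to 0.294 RPKM to 3.90 to 9.34 RPKM in monocytes, and has a processed copy, Cd9-ps, that moved with it, so reads may be split between them.

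Of 20 pattern recognition and Fc receptor genes, 7 rose in neutrophils and 9 in monocytes, 6 in both, and 3 had a larger monocyte response, with none the other way. The shares over all genes were 16.4%, 7.32%, 4.77% and 1.23%, in this order. Without tumor neutrophil replicate 1, 9 and 10 rose and again 3 differed. Clec4d, a C-type lectin for fungal and mycobacterial glycolipids, was at 60.1 to 106 RPKM in blood neutrophils and 111, 181, 271 and 281 RPKM in tumor neutrophils. In monocytes it went from 1.05, 0.155, 2.08 and 1.89 RPKM to 48.8, 51.8, 25.0 and 44.6 RPKM. Tumor neutrophils kept the higher level in every library, and the difference was −3.86 (SE 0.76, adjusted p 0.00947 in edgeR's quasi-likelihood test). Trem1, an amplifier of inflammatory signals, and Clec4e, the lectin Mincle, differed by −3.19 (SE 0.82, adjusted p 0.0368) and −1.93 (SE 0.52, adjusted p 0.0451). Without the Xist libraries the adjusted p was 0.0941 for Clec4d, 0.347 for Trem1 and 0.388 for Clec4e. Cd14, the lipopolysaccharide co-receptor, rose in both, by 2.82 (SE 0.46) and 4.56 (SE 0.50), to 363 to 1166 and 276 to 525 RPKM.

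The 6 named genes with the smallest interaction p and a larger monocyte response had no called rise in neutrophils. Mdm2, the ubiquitin ligase of p53, was at 6.36, 6.10, 5.66 and 6.27 RPKM in blood monocytes and 41.4, 37.0, 31.7 and 27.6 RPKM in tumor monocytes. In neutrophils it was at 9.55, 9.76, 12.3 and 8.71 RPKM in blood and 10.1, 7.97, 9.63 and 13.4 RPKM in the tumor, which overlap. The changes were −0.10 in neutrophils, which was not called, and 2.71 (SE 0.26) in monocytes, a difference of −2.81 (SE 0.35, adjusted p 5.92e-04 in edgeR's quasi-likelihood test). Mxi1, an antagonist of Myc that binds Max, rose from 0.855 to 1.48 RPKM to 6.06 to 9.36 RPKM in monocytes and was at 4.11 to 6.33 RPKM in blood and 1.47 to 4.73 RPKM in tumor neutrophils, which overlap. Its difference was −3.79 (SE 0.44).

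Ugcg, the glucosylceramide synthase, rose from 2.69 to 5.25 RPKM to 16 to 19.6 RPKM in monocytes, with overlapping levels of 6.93 to 12.7 and 5.28 to 8.73 RPKM in neutrophils, and Gfod1, an oxidoreductase domain gene, rose from 0.0671 to 0.282 RPKM to 4.35 to 8.37 RPKM in monocytes. Azin1, an antizyme inhibitor that protects polyamine synthesis, and Zfp516, a zinc finger transcription factor, moved apart without overlap in either cell type. Azin1 was at 15.5, 15, 14.5 and 10.9 RPKM in blood neutrophils, 7.77, 5.12, 6.24 and 8.00 RPKM in tumor neutrophils, 3.11, 1.33, 2.51 and 3.11 RPKM in blood monocytes and 6.92, 13.3, 13 and 8.83 RPKM in tumor monocytes. Its change of −1.18 in neutrophils was under the fold threshold and its change of 2.27 (SE 0.30) in monocytes was called. Zfp516 was the reverse case, with −1.98 (SE 0.30) called in neutrophils and 1.28 in monocytes under the threshold. The differences were −3.07 (SE 0.36) for Ugcg, −4.55 (SE 0.59) for Gfod1, −3.45 (SE 0.42) for Azin1 and −3.25 (SE 0.42) for Zfp516, and those of all 6 genes were called in each of 16 fits that left out 1 library. The tumor neutrophil mean of Azin1 was 6.78 RPKM and the epithelial mean 6.77 RPKM.

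Called under the level check, without tumor neutrophil replicate 1 and also without the Xist libraries were 17 genes with a larger monocyte response. Besides Mdm2, Gfod1, Azin1, Vegfa, Zfp516, Mxi1, Il1rn, Ugcg, Cd9 and Adam8 these were Inhba, Got1, Chst11, Basp1, Mgat4a, Cd9-ps and the unnamed gene model Gm37368, which fall outside the rule for named genes and were singled out after their values were seen. Inhba, the subunit of activin A, was at 124, 64.7, 80.6 and 160 RPKM in tumor monocytes and 0.0562 to 0.793 RPKM in blood monocytes, against 9.27 to 10.2 RPKM in tumor and 1.83 to 3.16 RPKM in blood neutrophils. It rose in both, by 8.40 (SE 0.75) in monocytes and 1.90 (SE 0.56) in neutrophils. Got1, the cytosolic aspartate aminotransferase, rose from 1.12 to 2.32 RPKM to 14.5 to 31.2 RPKM in monocytes and was at 0.675 to 2.33 RPKM in blood and 0.638 to 1.92 RPKM in tumor neutrophils.

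A further 2 calls of this kind came with unequal libraries in a group. Nos2, the inducible nitric oxide synthase, was at 21.7 RPKM in tumor monocyte replicate 1 and 0.619 to 2.32 RPKM in the other 3, and at 0.0593 to 8.98 RPKM in tumor neutrophils. Its difference of −7.40 had an adjusted p of 0.0363 in edgeR's quasi-likelihood test and 0.0699 without tumor neutrophil replicate 1. Dab2, an endocytic adaptor of macrophages, rose to 12.4 to 27.3 RPKM in tumor monocytes from at most 0.0331 RPKM, and was at 1.13, 0.00146, 0.208 and 0.529 RPKM in tumor neutrophils, highest in replicate 1, with an epithelial mean of 91.4% of the tumor neutrophil mean.

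Genes with a larger neutrophil response were mostly those that blood neutrophils nearly lacked. Only 2 of the 479 (0.418%) were higher in blood neutrophils than in blood monocytes, with a median log2 ratio of −4.52, and the median ratio in the tumor was −0.14. Within 2-fold of each other were 8 of the 479 in blood and 235 in the tumor, against 7242 and 9044 of all 17466 genes. The genes were chosen by a test on the same libraries, so these ratios describe the set. For 403 genes the rise was called in neutrophils alone, 23 rose in both, 25 fell in monocytes alone, 11 were opposed and 17 were called in neither. Of the 479, 415 failed the level check. Of these, 250 had a tumor neutrophil mean at or below the epithelial share, and 124 did without tumor neutrophil replicate 1. The part of epithelial RNA of the tumor neutrophil libraries in this convergence was not tested. For the 64 that passed the level check the ratio went from −4.02 to 0.25 and the epithelial share had a median of 8.87% of the tumor neutrophil mean, against 110% for those that failed. The check compares the same epithelial and tumor neutrophil means, so the gap between these medians follows in part from it. Without tumor neutrophil replicate 1 these medians were 3.45% and 70.3%.

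**Figure D4:**
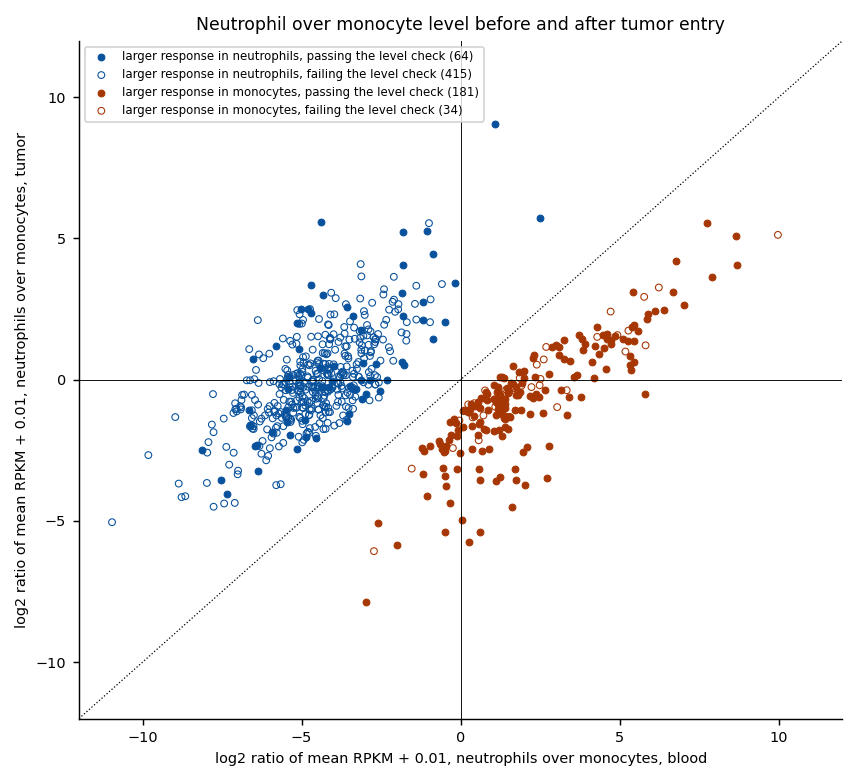
Log2 ratio of mean RPKM + 0.01 of neutrophils over monocytes in blood (x axis) and in the tumor (y axis) for the 694 genes called by the interaction, coloured and filled as in the plot of responses. Points right of the vertical line were higher in blood neutrophils (2 of the 479 blue genes), and those near the horizontal line were at similar levels in the tumor.

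Icam1 was among the genes that passed with the smallest p. Icam1, the adhesion ligand of beta2 integrins, was at 0.178, 0.264, 0.675 and 0.212 RPKM in blood neutrophils and 17.6, 38.1, 21.9 and 24.4 RPKM in tumor neutrophils. In monocytes it went from 6.91, 14.6, 3.55 and 4.24 RPKM to 27.2, 16.2, 17.6 and 15.3 RPKM. The groups did not overlap in either cell type, and tumor levels were alike in both. The log2 changes were 6.27 (SE 0.67) in neutrophils and 1.59 in monocytes, the second with an adjusted p of 0.0671, and their difference was 4.68 (SE 0.80, adjusted p 0.00427 in edgeR's quasi-likelihood test). The epithelial mean was 3.95 RPKM, 15.5% of the tumor neutrophil mean, and the call held without tumor neutrophil replicate 1 (0.00284) and without the Xist libraries (0.0383).

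F10, coagulation factor X, showed this gain with almost no epithelial transcript. It was at 0.0488, 0.101, 0.0201 and 0.225 RPKM in blood neutrophils and 9.20, 8.79, 5.25 and 5.98 RPKM in tumor neutrophils, with an epithelial mean of 0.0209 RPKM. Blood monocytes already held 14.6, 6.87, 11.1 and 10.4 RPKM and tumor monocytes 24.5, 26.5, 13.2 and 25.6 RPKM, which overlap. The difference was 4.89 (SE 0.72, adjusted p 0.00186 in edgeR's quasi-likelihood test). Cd93, a surface receptor of monocytes and endothelium, went from 0.382 to 0.813 RPKM to 6.46, 11.4, 10.9 and 14.1 RPKM in neutrophils and was at 10.9 to 24.0 RPKM in blood and 18.5 to 38.0 RPKM in tumor monocytes, with an epithelial mean of 0.170 RPKM. Monocyte markers in tumor neutrophils were at a median of 0.483% to 2.69% of the blood monocyte level. Their sum was 23.1 to 54.1 RPKM, against 280 to 353 RPKM in tumor monocytes. The part of monocyte RNA in F10 and Cd93 was not tested.

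Tgif1 and Prkd3 ended higher in tumor neutrophils than in tumor monocytes. Tgif1, a homeobox repressor of TGF-beta targets, rose from 0.0347, 0.0694, 0.208 and 0.178 RPKM to 16.5, 20.4, 16 and 18.4 RPKM in neutrophils and from 1.11 to 2.77 RPKM to 10.7 to 14.2 RPKM in monocytes. Every tumor neutrophil library was above every tumor monocyte library, both rises were called, and their difference was 4.31 (SE 0.68, adjusted p 0.00228 in edgeR's quasi-likelihood test). Its epithelial mean of 11.1 RPKM was 62.1% of the tumor neutrophil mean. Prkd3, protein kinase D3, was at 0.794, 0.775, 0.600 and 0.892 RPKM in blood and 4.24, 9.55, 8.00 and 10.5 RPKM in tumor neutrophils, lowest in the library with the most epithelial transcripts. In monocytes it was at 2.63 to 2.81 RPKM in blood and 1.26 to 1.90 RPKM in the tumor, a change of −0.52 that was not called. Its difference was 3.91 (SE 0.49, adjusted p 5.92e-04 in the same test) and the epithelial mean 1.30 RPKM.

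Nr4a1, an immediate early nuclear receptor like Nr4a3, gave a called difference of 3.63 (SE 0.86, adjusted p 0.0248 in edgeR's quasi-likelihood test). Blood neutrophils were at 0.477, 0.301, 2.64 and 1.82 RPKM and blood monocytes at 32.9, 35.6, 10.4 and 13.4 RPKM, while the tumor levels of 25.9 to 41.7 and 27.1 to 55.9 RPKM overlapped. The epithelial mean was 28.1 RPKM. Hgsnat, a lysosomal acetyltransferase of heparan sulfate breakdown, was the 1 named gene here whose change lay in monocytes. It was at 5.75 to 6.99 RPKM in blood and 6.65 to 7.97 RPKM in tumor neutrophils and fell from 8.19 to 10.2 RPKM to 1.5 to 2.44 RPKM in monocytes, a change of −2.12 (SE 0.30). Its difference of 2.25 (SE 0.41) had an adjusted p of 0.00595 and 0.148 without the Xist libraries.

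Called in all 3 checks were 10 genes with a larger neutrophil response, namely Icam1, F10, Cd93, Tgif1, Prkd3, Nr4a1, Cldn1 and, singled out after their values were seen, Ikbke, Lacc1 and Dock10. Ikbke, the kinase IKK epsilon of interferon and NF-kappaB signaling, was at 0.0242 to 0.0487 RPKM in blood neutrophils and 2.53, 1.34, 4.03 and 3.19 RPKM in tumor neutrophils, against 1.61 to 3.11 and 2.73 to 4.80 RPKM in blood and tumor monocytes. Its difference of 5.04 (SE 0.50) had an adjusted p of 1.86e-04 in edgeR's quasi-likelihood test. Lacc1, an enzyme of purine nucleosides in macrophages, rose in both, by 6.31 (SE 0.65) and 2.15 (SE 0.51). Dock10 rose from 0.0445 to 0.183 RPKM to 0.358 to 1.02 RPKM in neutrophils, below the 5.26 to 5.65 RPKM of tumor monocytes.

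Larger neutrophil responses that failed the level check are given for Stx3, Rnd3 and Tmem176b, named by the smallest p. Stx3, a membrane fusion protein, was at 1.87, 0.569, 1.04 and 0.410 RPKM in tumor neutrophils, below its epithelial mean of 3.17 RPKM, and differed by 4.80 (SE 0.55). Rnd3 was at 7.90 RPKM in tumor neutrophil replicate 1 and 1.10 to 1.49 RPKM in the other 3, with 17 RPKM in epithelial cells. Tmem176b, a membrane protein of monocytes, was at 6.15, 3.55, 1.98 and 1.45 RPKM in tumor neutrophils and 12.3 RPKM in epithelial cells, and it was highest in the blood monocyte libraries with Xist, at 37.4 and 54.6 RPKM against 8.83 and 11.2 RPKM. Among list genes, Myc failed with 4.45 RPKM in tumor neutrophils against 16.9 RPKM in epithelial cells, Itgb1, the integrin beta1 chain, with 6.96 against 11.7 RPKM, and Fn1, fibronectin, with 3.24 against 14.8 RPKM. All 6 were called without tumor neutrophil replicate 1 too. Atp2b4, a calcium pump, failed although its response was larger in monocytes, where it rose from 0.228 to 0.783 RPKM to 7.39 to 9.72 RPKM, because its mean in tumor neutrophils, 0.117 RPKM, was below the epithelial 0.140 RPKM.

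Changes in opposite directions, called in each cell type, were rare, at 11 genes up in neutrophils and down in monocytes (0.063% of genes) and 4 genes up in monocytes and down in neutrophils (0.0229%). Of the 11, only Cldn1 passed the level check and was opposed again without tumor neutrophil replicate 1. Cldn1, the tight junction protein claudin-1 (chromosome 16, 26356642 to 26371841, minus strand), was at 0.852, 0.273, 0.480 and 0.620 RPKM in blood neutrophils and 3.76, 9.74, 5.05 and 5.51 RPKM in tumor neutrophils, without overlap, a log2 change of 3.48 (SE 1.04, adjusted p 0.0205 in edgeR's quasi-likelihood test). Tumor epithelial cells held 0.343 RPKM, 5.70% of the tumor neutrophil mean. Tumor monocytes had at most 1 count in any library, and blood monocytes were at 0.914, 0, 0.0760 and 0.0337 RPKM, which overlaps and is highest in replicate 1. The Cldn1 difference of 10.33 was 6.82, and no longer called, with the animal in the titles as a random block (adjusted p 0.0568 in limma-voom). The other 10, Lrrc20, Engase, Rtl6, Prkdc, Pdlim1, Mettl8, Snx30, Gm5864, Bri3bp and Lpar5, all failed the level check.

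Of the 4 genes opposed the other way, 3 passed the level check and Tlr5 and Ankrd28 were opposed again without tumor neutrophil replicate 1. These were described after their values were seen, having means under 5 RPKM. Tlr5, the receptor for bacterial flagellin, fell from 2.10, 3.31, 3.52 and 3.12 RPKM to 0.386, 0.343, 1.07 and 1.37 RPKM in neutrophils and rose from 0.327, 1.03, 0.879 and 0.866 RPKM to 2.48, 3.75, 6.93 and 5.70 RPKM in monocytes. Neither pair overlapped, and the changes were −2.09 (SE 0.50) and 2.81 (SE 0.51). Without the Xist libraries the difference was −4.48 with an adjusted p of 0.0613 in edgeR's quasi-likelihood test. Ankrd28, an ankyrin repeat subunit of protein phosphatase 6, fell by 1.56 (SE 0.52) in neutrophils and rose by 2.22 (SE 0.53) in monocytes, and its neutrophil groups overlapped. The remaining genes were Spry2 and Adam1a.

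Over the 27 gene lists, called differences between the responses were few, and several lists held them in both directions. Larger monocyte responses were called for 3 of 16 cytokine genes, 3 of 20 pattern recognition receptors and 2 of 26 glycolysis and hypoxia genes, with none the other way in these lists. For all counts in this paragraph, the shares over all genes were 1.23% larger in monocytes and 2.74% larger in neutrophils. Single larger monocyte responses were called among CC chemokine genes (Ccr1, a receptor of inflammatory chemokines), T-cell suppression genes (Nos2), antioxidant and iron genes (Slc7a11), survival genes (Cflar, an inhibitor of caspase-8), eicosanoid genes (Ptger2, a receptor of prostaglandin E2) and heat shock genes (Dnaja1, a co-chaperone). Ptger2 reached at most 3.04 RPKM in any of the 16 libraries and was at an adjusted p of 0.0661 in edgeR's quasi-likelihood test without tumor neutrophil replicate 1. Cflar differed by −1.39 without that library, under the fold threshold, at an adjusted p of 0.0251 in the same test. Lists with larger neutrophil responses held marker genes of other cells: 2 of 10 monocyte markers (Fn1 and Tmem176b), 1 of 14 epithelial markers (Vil1), and 1 each of macrophage and antigen-presenting cell markers (Mrc1 and Ciita), besides 2 of 21 immediate early genes (Nr4a1 and Myc) and 2 of 18 adhesion genes (Icam1 and Itgb1). Adhesion genes also held 2 larger monocyte responses (Cd9 and Itgax, an integrin of phagocytes), neutrophil markers 1 (Trem1), matrix genes 1 (Adam8, with Fn1 the other way), macrophage markers 1 (Dab2) and antigen-presenting cell markers 1 (Xcr1, at most a few counts in tumor neutrophils). Without tumor neutrophil replicate 1 the calls of Vil1, Mrc1, Ciita and Xcr1 were lost, at adjusted p of 0.0661, 0.0774, 0.0668 and 0.0690 in edgeR's quasi-likelihood test. Vil1, an actin-bundling protein of the brush border, was at 9.70 RPKM in that library and 0.317 to 2.09 RPKM in the other 3, and its epithelial mean of 11.1 RPKM was above both.

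**Figure D5:**
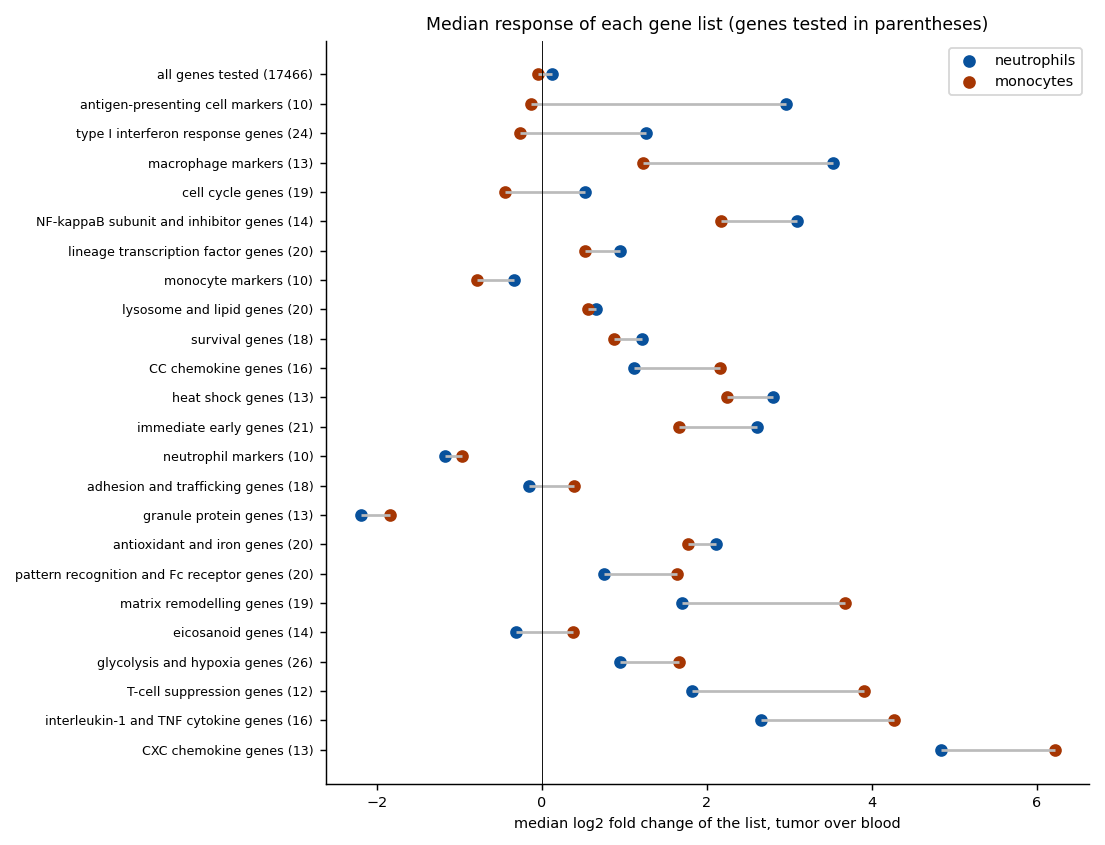
Median log2 change, tumor over blood, over the tested genes of each list (y axis, number tested in parentheses) in neutrophils (blue) and monocytes (brown), joined by a line. CXC chemokine (4.84 and 6.22) and cytokine genes (2.66 and 4.27) are to the right with the larger median in monocytes, NF-kappaB genes (3.10 and 2.17) with the larger median in neutrophils.

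A set of 4 lists had called rises in neutrophils and none in monocytes, which does not show that the lists differed. Type I interferon response genes rose in 3 of 24 cases in neutrophils, a smaller share than the 16.4% of all genes, and in none without the Xist libraries. Their medians were 1.26 and −0.27, with no called difference. Isg15, a ubiquitin-like protein induced by interferon, was at 5.81, 91.7, 8.54 and 7.0 RPKM in tumor neutrophils, highest in replicate 2, and at 1.14 to 2.22 RPKM in blood neutrophils. Cell cycle genes rose in 4 of 19 cases in neutrophils, but 17 of the 19 failed the level check and 1 rose without tumor neutrophil replicate 1. Monocyte markers rose in 3 of 10 cases in neutrophils. Antigen-presenting cell markers rose in 5 of 10 cases in neutrophils and in none in monocytes, where 3 rose without the Xist libraries and where their summed level was 25.5 to 654 RPKM in blood and 125 to 364 RPKM in the tumor, against 0.562 to 3.33 and 21.9 to 36.9 RPKM in neutrophils, although the sort had left out cells with surface MHC class II. The summed macrophage markers were at 99.3 to 196 RPKM in tumor monocytes and 5.69 to 16.4 RPKM in tumor neutrophils. The part of these cells in the neutrophil calls was not tested.

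Shared rises stood in the remaining functional lists as well. T-cell suppression genes rose in 6 of 12 cases in neutrophils and 8 in monocytes, 5 in both. For this list and the next 2, the shares over all genes were 16.4% in neutrophils, 7.32% in monocytes and 4.77% in both. Ptgs2, the cyclooxygenase that makes prostaglandin precursors, was at 58.7, 323, 85.2 and 48.5 RPKM in tumor neutrophils and 139, 104, 153 and 129 RPKM in tumor monocytes, from 0.810 to 16.1 and 0.323 to 2.75 RPKM in blood. Entpd1, the ectonucleotidase CD39, went from 19.2 to 21.4 RPKM to 31.1 to 96.2 RPKM in neutrophils and from 1.77 to 2.64 RPKM to 9.53 to 24.9 RPKM in monocytes. Matrix remodelling genes rose in 8 and 11 of 19 cases, 7 in both, among them Plaur, the urokinase receptor, by 1.72 (SE 0.36) and 2.69 (SE 0.37). Antioxidant and iron genes rose in 11 and 9 of 20 cases, 8 in both, among them Hmox1, heme oxygenase 1, by 1.99 (SE 0.40) and 2.83 (SE 0.42), and Srxn1, sulfiredoxin, by 3.35 (SE 0.51) and 4.85 (SE 0.55). The level check was failed by 5 of the 19 matrix genes and 8 of the 20 antioxidant and iron genes. In none of Ptgs2, Entpd1, Plaur, Hmox1 and Srxn1 was the difference between the cell types called.

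Lineage transcription factor genes rose in 6 of 20 cases in neutrophils (4 without tumor neutrophil replicate 1) and 4 in monocytes, 2 in both, larger shares than the 16.4% and 7.32% of all genes, and none differed by the interaction. Of the 20, 7 failed the level check. Medians were 0.94 and 0.52. In the remaining lists, eicosanoid genes rose in 1 and 3 of 14 cases and fell in 3 and none. Epithelial markers rose in 13 of 14 cases in neutrophils and 9 in monocytes, and again in 13 of 14 in neutrophils without replicate 1 of the tumor group, with medians of 7.57 and 6.87. Without the Xist libraries 10 and 3 rose. Fibroblast and endothelial markers rose in 2 and 3 of 9 cases, with summed levels of at most 5.61 RPKM. Their median level was 1.42% to 13.2% of the mean in sorted tumor stromal cells in tumor neutrophils and 0.746% to 4.12% in blood neutrophils. It was 0.238% to 6.07% in tumor monocytes and 0.126% to 0.205% in blood monocytes. The level check uses epithelial cells only, and the part of stromal RNA was not tested. Erythroid and platelet markers fell in 6 of 10 cases in each cell type, 5 of them in both, and were highest in the blood libraries with Xist. Without those libraries 1 fell in neutrophils and 0 in monocytes, in a fit where 406 and 104 of all genes fell. With all 16 libraries, 6.65% of all genes fell in neutrophils, 2.75% in monocytes and 1.31% in both, which are also the shares for the eicosanoid falls. None of the 4 lymphocyte markers tested was called, and their summed level was at most 9.57 RPKM.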

How the data were processed

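RNA was measured in 16 libraries, 4 each of blood and tumor neutrophils and monocytes of tumor-bearing mice, with 4 libraries of tumor epithelial cells as a reference for levels. The authors mapped single reads to mm10 with Bowtie2 on a web platform and deposited estimated counts (expected counts, 99.6% of nonzero values not whole) and RPKM per gene. The annotation release, strand setting and treatment of multiply mapped reads are not given in the sources used here, so overlapping genes and near-identical copies are uncertain. Counts were rounded, and genes passing filterByExpr (17466) were fitted over 4 groups with edgeR 4.0.16 in R 4.3.3, using TMM and the robust quasi-likelihood test with Benjamini-Hochberg adjustment. A call needed an adjusted p under 0.05 and an absolute log2 value above 1.5. P-values set the group differences against the spread between these libraries, estimated with information shared over genes. By their titles some libraries come from the same animal, which the main fit did not take into account. RPKM served for levels only.

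The comparison, the genes and the 27 lists were chosen with earlier results of these data known. Genes named by rule had a mean of at least 5 RPKM in 1 of the 4 groups. Apart from those shown as failing, they passed the level check and were called without tumor neutrophil replicate 1. They were the 6 with the smallest interaction p in each direction and the 5 with the largest shared or opposed change. The 4 failing the level check with the smallest p were added. Up to 4 members of each list were named as well, without these filters, ranked by their calls and then by interaction p. Alternatives were DESeq2 1.42.0 and limma 3.58.1 (voom, and log2 of RPKM plus 1), other filters, normalization and samples, covariates, blocks, and leaving out each library. Tested on simulated data of the interaction (17466 genes, 200 changed), the fit recovered 2.985% of changes of log2 2, 20.9% of 3 and 56.1% of 5, with 0 false calls. In that setting smaller differences were mostly not detected. The simulation held no other group difference, and its 200 changed genes are fewer than the 694 called here. The adjusted p depends on the number of changed genes, so these rates need not hold for the data, where Hgsnat was called at 2.25.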

Additional observations from a re-analysis of the deposited data

Results flagged for a closer look

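The interaction test found that neutrophils and monocytes responded differently for 694 genes. Of the genes named by rule, those with a larger neutrophil response had log2 differences of 10.33 (Cldn1, whose tumor monocyte libraries had at most 1 count, so that the value is no bound), 3.91 (Prkd3), 4.89 (F10), 4.31 (Tgif1), 4.68 (Icam1), 3.20 (Cd93) and 2.25 (Hgsnat). Those with a larger monocyte response had −3.79 (Mxi1), −3.07 (Ugcg), −3.45 (Azin1), −2.81 (Mdm2), −3.25 (Zfp516), −4.55 (Gfod1) and −4.25 (Il1a). Among genes that failed the level check the differences were 4.80 (Stx3), 6.01 (Rnd3), 7.68 (Tmem176b) and −3.77 (Atp2b4).

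One library lay far from the other 3 of its group, by Dixon's criterion, for the epithelial markers of tumor neutrophils (83.9% in replicate 1) and for 7 gene levels: Rnd3 (7.90 RPKM) and Hbb-bs (44.5 RPKM) in tumor neutrophil replicate 1, Mir5104 in tumor neutrophil replicate 4 (0.227 RPKM), Cldn1 in blood monocyte replicate 1 (0.914 RPKM), Nr4a3 in blood neutrophil replicate 4 (0.180 RPKM), Serpinb2 in blood neutrophil replicate 2 (0.115 RPKM) and F10 in tumor monocyte replicate 3 (13.2 RPKM). Chance gives such a library in about 1 in 20 groups, and 108 groups of gene levels were examined. Outside the comparisons, the libraries of 4 animals differed in Xist although their titles share an animal's name, for 1 of them in a title that names 2 animals.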

How the results depend on the processing

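The number of genes with different responses and its split between the directions depended on the fit. The counts reported above were 694 (479 larger in neutrophils, 215 in monocytes), with 1061 changed alike in both cell types and 15 opposed. DESeq2 gave 1965 (1453 and 512, with 62 opposed) and a fit over all 40 libraries 1989 (1467 and 522, with 80 opposed). Counts were lower with limma on log2 RPKM (303, of which 125 larger in neutrophils and 178 in monocytes, so that the majority turned, with 223 alike and 0 opposed), a minimum of 10 counts (454, 295, with 399 alike and 7 opposed) and the epithelial marker level as a covariate (32, near evenly split at 17 and 15, with 51 alike and 0 opposed). The epithelial covariate nearly follows tumor against blood, so its fit cannot separate epithelial RNA from the response. An animal block gave 275 larger in neutrophils. Opposed genes numbered 4 with Xist as a covariate, 5 without a filter and 32 without the fold threshold. Leaving out the 4 blood libraries with Xist, chosen after seeing the data, gave 55 (35 and 20, with 348 alike and 1 opposed). Leaving out 1 library at a time gave 350 to 1328, with 221 to 939 larger in neutrophils, 129 to 389 larger in monocytes, 756 to 1289 alike and 5 to 38 opposed. The highest of these counts, 1328, was without tumor neutrophil replicate 2, and counts more than 1.5 times under 694 were without blood neutrophil replicates 2 (350), 1 (396), 4 (448) and 3 (452), tumor monocyte replicates 1 (385) and 4 (425) and blood monocyte replicate 1 (407). The cause was not tested. Mrc1 reversed, from 4.83 to −0.090 with limma on log2 RPKM.

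The replicate numbers did not pair the samples: correlations of same-numbered samples were −0.14 to 0.099 over 24 pairs. A replicate block gave 400, of which 238 larger in neutrophils and 162 in monocytes, with 780 alike and 7 opposed. Of the 120 genes examined singly, 43 passed the test of the difference, of which 1, Mrc1, had the other sign under any alternative. Of the 77 that did not pass, 30 had the other sign under at least 1 alternative, so their directions are given as values only.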
